A study of Glycine max with 4 samples.

Results

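The regions described here are the GmWRI1 ChIP-Seq peaks that lie in the middles of the 20 soybean chromosomes, where the distal arms give way to the long stretches around the centromere. Members were the replicate 1 regions whose midpoint fell from 0.3 to 0.7 of the chromosome length, with each chromosome measured up to the most distal region end found on it in either list. The middles held 1027 of the 7012 regions on the 20 chromosomes (14.6%) in 40% of the length, 378.9 of 947.2 Mb. The outer parts held the other 5985 regions. GmWRI1 was mapped in cotyledon (cot) stage embryos of the soybean cultivar Williams 82, an untransformed line grown in a greenhouse and dissected from seeds of 3.5 to 4.5 mm. There were 4 samples in all, a GmWRI1 ChIP and an input of total chromatin for each of 2 biological replicates, with no treatment. GmWRI1 here means GmWRI1-A (Glyma.08G227700), which supplied the peptide for the antibody, together with GmWRI1-B, which the antibody is described as binding too. The study itself states that its cot stage libraries fell short of the quality thresholds it used for ChIP-Seq. The limits of 0.3 and 0.7 stand in for the pericentromeric, gene-poor part, and gene density was not measured here, so the regions are called middles and not pericentromeres.

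WRINKLED1 (WRI1) is a transcription factor of the APETALA2 family that activates the genes of glycolysis and fatty acid synthesis while seeds fill with oil. In soybean, most genes lie on the distal chromosome arms, and the stretches around the centromeres are rich in repeats and recombine little. In ChIP-Seq, proteins are crosslinked to DNA and the fragments pulled down by an antibody are compared with input chromatin. A region is a stretch in which the ChIP fragments exceed the input background, its summit is the highest point, and its fold enrichment is the ratio of fragments to local background at that summit. The local background is what the input and its surroundings predict at that point.

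GmWRI1 regions were sparse in the chromosome middles in both replicates. In replicate 1, the middles held 2.76 ± 2.19 regions per Mb (SD, n = 20 chromosomes) and the outer parts 10.7 ± 1.92. The middle was the less dense part on 19 of 20 chromosomes (exact sign test over chromosomes, two-sided, p = 4.01e-05, adjusted p = 0.000120 over 9 tests). In replicate 2, whose list was shorter, the values were 0.847 ± 0.534 and 3.22 ± 0.526 regions per Mb, and the middle was the less dense part on 20 of 20 chromosomes (exact sign test, adjusted p = 1.72e-05). Pooled over chromosomes, the outer parts were 3.89 times as dense as the middles in replicate 1 and 3.78 times in replicate 2. The lists shrank alike in both parts, with 3.21 replicate 1 regions for each replicate 2 region in the middles and 3.30 in the outer parts. Chromosomes are not replicates of the experiment and share the same libraries, so these tests show only whether a direction held from chromosome to chromosome.

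The density fell in steps from the ends towards the centre. Each chromosome was divided into 10 segments of equal length, numbered from its start. In replicate 1, segments 1, 2 and 3 had 1423, 888 and 558 regions. The 4 segments of the middles had 381, 217, 199 and 230 regions, and segments 8, 9 and 10 had 553, 1019 and 1544. Replicate 2 had 128, 57, 72 and 63 regions in the 4 middle segments, against 419 in segment 1 and 454 in segment 10. Within the middles, the stretch from 0.4 to 0.6 of the length held 2.20 regions per Mb and the flanks on either side of it held 3.23. The sparsest segment lay in the middle on 17 of 20 chromosomes, and the densest one lay there on 0 of 20. The densest segment was at an end of the chromosome on 18 of 20.

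**Figure D1:**
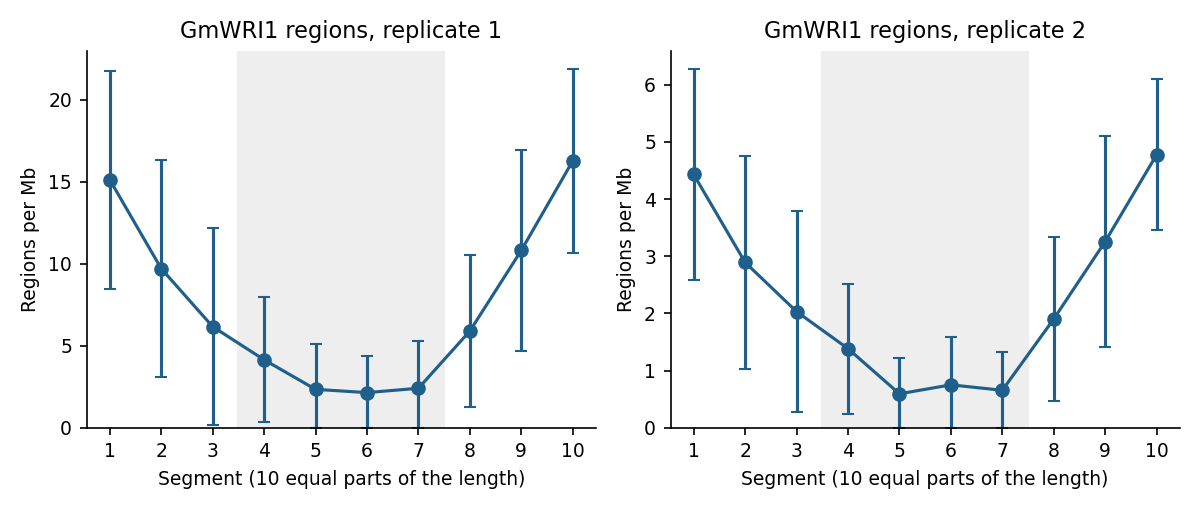
Regions per Mb in each of 10 equal segments of the chromosome length for replicate 1 (left) and replicate 2 (right), as the mean over 20 chromosomes with error bars of 1 SD (cut at 0), the middles shaded grey. The mean falls from 15.1 per Mb in segment 1 to 2.15 in segment 6 in replicate 1, and from 4.43 to 0.752 in replicate 2.

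Chromosomes differed in how empty their middles were. Chromosome 10 had the sparsest middle, with 19 members at 0.921 per Mb against 11.8 per Mb in its outer parts, a ratio of 12.8. Chromosome 19 followed with 22 members at 1.09 per Mb. Over chromosomes, the median number of members was 42, and the median ratio of outer to middle density was 4.61. Chromosome 8 held 99 members at 5.18 per Mb, below the 11.8 per Mb of its outer parts.

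Chromosome 13 was the exception. Its middle held 205 of the 1027 members, 41.8% of the 491 regions of the chromosome, at 11.2 per Mb against 10.4 in its outer parts. Its sparse stretch lay at the start of the chromosome instead, with 3 regions in segment 1 and 3 in segment 2. The outer part on that side held 1.53 regions per Mb and the one at the far end 19.3. In replicate 2 the start was likewise the sparsest part at 0.656 regions per Mb and the far end the densest at 5.47, but the middle, at 2.84, was slightly less dense than the outer parts together, at 3.06. Chromosome 20 also had its sparsest segment outside the middle, segment 3 with 2 regions, and so did chromosome 15, segment 8 with 4. On these 3 chromosomes the middle did not hold the sparsest segment.

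**Figure D2:**
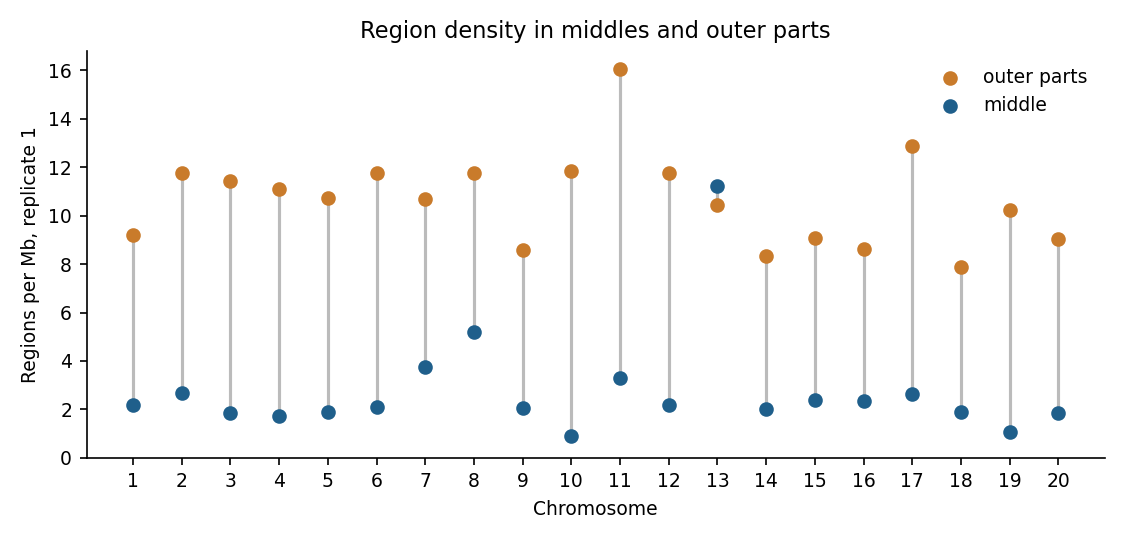
Replicate 1 regions per Mb in the middle (blue) and the outer parts (orange) of each chromosome, joined by a line. The middle lies below the outer parts on 19 of 20 chromosomes, with chromosome 13 (11.2 against 10.4) as the exception and chromosome 10 (0.921) lowest.

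Neighbouring regions lay farther apart in the middles. The median distance between the midpoints of neighbouring regions was 175 ± 97.9 kb in the middles and 42.6 ± 7.80 kb in the outer parts (SD, n = 20 chromosomes), longer in the middle on 19 of 20 (exact sign test, adjusted p = 0.000120). In the replicate 2 list it was 593 kb against 154 kb, longer in the middle on 18 of 20 (exact sign test, adjusted p = 0.000906). The range over middles ran from 44.6 kb on chromosome 2 to 419 kb on chromosome 10, with a median of 176 kb. Chromosome 2 was the exception at 44.6 kb, against 48.0 kb in its outer parts, although its middle was sparse at 2.68 regions per Mb. Its members were gathered mainly on 1 side, with 39 of 52 in segment 4 and 10 in segment 7. A stretch of 7.53 Mb from 18302695 to 25831700 held no region. On chromosome 13, the median distance was longer in the middle (52.2 against 37.2 kb) although the middle was the denser part.

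Distances between neighbouring members varied widely. Over all 1007 distances the median was 104 kb and the mean 340 kb, a median of 0.305 of the mean. In the outer parts the median was 0.450 of the mean. The distances were pooled over chromosomes whose middles ran from 0.921 to 11.2 regions per Mb, and whose outer parts ran from 7.89 to 16.1. Pooling unlike densities lowers this ratio by itself, so it does not measure unevenness within a chromosome. A neighbour lay within 1 kb for 8.24% of the distances in the middles and 8.29% in the outer parts. At 10 kb the shares were 19.0% and 24.0%, and at 100 kb 48.8% and 74.4%. At the other end, 91 distances in the middles (9.04%) exceeded 1 Mb, against 49 in the outer parts (0.824%). These distances join members only and do not count the stretch from a last member to the limit of the middle. With those counted, the longest stretch of a middle without a region was on chromosome 8, which had none from 24609500 to 34845182, and 8.81 Mb of that lay inside the middle. Chromosome 19 came next with 8.32 Mb, from 18769507 to 27089549, then chromosome 2, and then chromosome 10 with 5.25 Mb. Chromosome 13 had the shortest such stretch, at 1.07 Mb.

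Width did not differ between the parts beyond its error. The median width over chromosomes was 309 ± 29.8 bp in the middles and 312 ± 10.2 bp in the outer parts (SD, n = 20 chromosomes), larger in the middle on 10 and smaller on 10 of 20 (exact sign test, adjusted p = 1). In replicate 2 it was 287 ± 59.1 bp and 275 ± 20.4 bp (exact sign test, adjusted p = 0.338). Median fold enrichment was 4.71 ± 0.354 in the middles and 5.00 ± 0.144 in the outer parts (SD, n = 20 chromosomes). It was lower in the middle on 15 of 20 chromosomes, which did not pass the test after adjustment (exact sign test, p = 0.0414, adjusted p = 0.0745). In the replicate 2 list the values were 5.56 and 6.16, lower in the middle on 13 of 20 (exact sign test, adjusted p = 0.338). The replicate 1 difference passed with the middle taken as 0.25 to 0.75 of the length (-0.21) and changed sign with 0.4 to 0.6. Without regions at high input background, described below, it shrank from -0.29 to -0.05, with 5.02 in the middles and 5.07 outside (exact sign test, adjusted p = 0.296).

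Widths of members ran from 179 to 3409 bp, with quartiles of 220, 311 and 445 bp. The narrowest width, 179 bp, was shared by 48 members and by 279 outer regions. The 3 of them named by rule, on chromosomes 1 and 2, had enrichments from 3.89 to 4.46 and were not shared. At the wide end, 40 members (3.89%) reached 1000 bp, against 322 outer regions (5.38%). Of those 40, 29 were overlapped in replicate 2 (72.5%), against 250 of the 322 outer regions (77.6%) and 28.0% of all 7012 regions. Among the 3 widest was a member of 2494 bp on chromosome 6, at the F-box gene Glyma.06G197000, with enrichments of 16.7 and 6.32. Width rose with enrichment within the middles as it did elsewhere, with a Spearman correlation across regions of 0.63 in both parts (937 and 5826 regions, high-background regions left out). Regions are not independent replicates, and width and enrichment come from the same fragments.

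The strongest shared members reached enrichments far above the median. The 10 with the highest mean over both replicates ranged from 38.5 to 47.0, and the highest outer region reached 59.2. By this mean, members made up 231 of all 1765 shared regions at ordinary background (13.1%). They made up 29 of the 200 strongest (14.5%), 15 of the 100 strongest (15.0%), 11 of the 50 strongest (22.0%), 2 of the 20 strongest and 0 of the 10 strongest, a description with no test. Counting errors below are exact Poisson 95% intervals of the fragments at the summit and cover counting error only.

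The strongest member lay on chromosome 7 from 15564784 to 15567831 (Wm82.a2.v1), 3048 bp wide. Its fold enrichment was 62.5 in replicate 1, from 296 fragments (263 to 332), and 31.6 in replicate 2, from 112 fragments (92.2 to 134.8). The study's gene table names Glyma.07G131800 there, annotated as pol-like 5 (PLL5), a homolog of an Arabidopsis protein phosphatase. Another strong member on that chromosome, from 16671866 to 16673217, reached 56.3 and 32.6 at Glyma.07G140800, an adenine nucleotide alpha hydrolase-like gene.

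On chromosome 13, the member from 24712678 to 24713301 reached 55.4 in replicate 1 and 35.4 in replicate 2, at Glyma.13G134600, annotated as a member of a transmembrane receptor family. The member on chromosome 12 from 13317893 to 13319657 reached 58.2 and 27.1, at Glyma.12G122300 (TRICHOME BIREFRINGENCE-LIKE 39, a family of cell wall acetylation proteins). The dirigent-like gene Glyma.04G124100 on chromosome 4 had 45.5 and 33.4 at 16076331 to 16076965. All these members were lower in replicate 2.

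Among the 10, a pair carried no gene name in the tables used. The member on chromosome 20 from 33447827 to 33451235 was the widest of all at 3409 bp and had enrichments of 56.7 and 29.6. The one on chromosome 1 from 32297043 to 32297755 had 53.4 and 35.1. The remaining 3 of the 10 were at lipid genes and are given with those.

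Members at genes of fatty acid (FA) and triacylglycerol (TAG) synthesis were found on 8 chromosomes. The table used here holds 119 positions for 110 such genes. It covers those that the study counted as GmWRI1 targets, bound in its own ChIP at the early maturation stage and coexpressed with GmWRI1, so a match is no independent evidence of binding. Of the 1027 members, 12 contained a listed position (1.17%), and of the 5985 outer regions, 74 did (1.24%). Of the 12 members, 8 were overlapped in replicate 2 and 4 were not, and 0 were at high background. Of the 74 outer regions, 56 were overlapped, and over all 7012 regions the share was 28.0%. Median replicate 1 enrichment was 14.3 for the 12 members and 25.1 for the 74 outer regions. The 8 shared members had replicate 1 enrichments from 13.4 to 48.9, and the 4 unshared members from 3.89 to 5.27. Roles given below are those of the Arabidopsis homologs.

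Carbon enters plastid FA synthesis through glycolysis. The plastidic pyruvate kinase beta subunit (PKP-BETA1), which makes the pyruvate for FA synthesis in seeds, has its homolog Glyma.09G126300 on chromosome 9. The member there, from 31124501 to 31125294, had an enrichment of 48.9 in replicate 1, from 296 fragments (263 to 332), and 36.0 in replicate 2, from 168 fragments (144 to 195). It ranked 9 of 1027 members by replicate 1 enrichment, and its summits in the replicates were 1 bp apart.

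Glyma.03G092700, the homolog of the plastid glyceraldehyde-3-phosphate dehydrogenase GAPCP-1, lay at a shared member on chromosome 3 from 27389964 to 27390411, with enrichments of 14.0 and 12.1. The enolase homolog Glyma.04G144300 (ENO1, the plastid enolase) lay at a weak member on chromosome 4, from 26328594 to 26328825. Its enrichment was 4.45 from 26 fragments (17.0 to 38.1), with no replicate 2 region. Pyruvate is turned into acetyl-CoA by the plastid pyruvate dehydrogenase complex, and the homolog of its E2 subunit LTA2, Glyma.01G081900, had enrichments of 13.4 and 11.99 on chromosome 1 from 23798109 to 23798552.

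Acetyl-CoA carboxylase, which makes malonyl-CoA in the committed step of FA synthesis, was represented by its biotin carboxyl carrier subunit BCCP2. The member at Glyma.13G057400, on chromosome 13 from 15513842 to 15514486, had 20.9 in replicate 1, from 145 fragments (122 to 171), and 18.3 in replicate 2, from 79 fragments (62.5 to 98.5). The next enzyme, the malonyl transferase MCMT (Glyma.11G164500), lay at a weak and unshared member on chromosome 11 from 15579472 to 15579743. Its enrichment was 3.89 from 37 fragments (26.1 to 51.0), against a background 2.60 times the lowest of the list.

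A pair of enzymes of the FA elongation cycle lay at shared members. The hydroxyacyl-ACP dehydratase (HAD) homolog Glyma.08G179900 had enrichments of 36.9 and 40.02 on chromosome 8 from 14415055 to 14415729. Its replicate 1 summit held 257 fragments (227 to 290). The enoyl-ACP reductase homolog Glyma.18G156100 (ENR1, also MOD1), which closes each cycle, had 20.3 and 17.6 on chromosome 18 from 34158463 to 34158967.

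For TAG assembly, the homolog of ROD1 was Glyma.08G213100. ROD1 encodes the phosphatidylcholine:diacylglycerol cholinephosphotransferase that moves FAs into and out of membrane lipid for desaturation. Its member on chromosome 8, from 17189446 to 17190245, had 37.5 in replicate 1, from 313 fragments (279 to 350), and 40.9 in replicate 2, from 191 fragments (165 to 220). This was the highest replicate 2 enrichment of any member. ROD1 and HAD were the only members of the top 10 with a higher enrichment in replicate 2 than in replicate 1. Glyma.01G080400, annotated as a thioesterase superfamily protein, had 14.6 and 12.9 on chromosome 1.

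The last pair was weak and unshared. Glyma.09G132200, a homolog of the carotenoid enzyme beta-hydroxylase 1, had an enrichment of 5.27 from 26 fragments (17.0 to 38.1). Glyma.09G135200, annotated only as an NAD(P)-binding Rossmann-fold protein, had 3.97 from 19 fragments (11.4 to 29.7). Both lay on chromosome 9.

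The 8 shared members at lipid genes had like enrichments in both replicates. Their log2 ratio of replicate 2 to replicate 1 had a median of -0.18 and ran from -0.44 to 0.12. The 75 other shared members at ordinary background with a replicate 1 enrichment of at least 13.4 had a median of -0.88, with quartiles of -1.18 and -0.52. In the outer parts, the median was -0.46 at 56 shared regions with a listed position and -0.89 at 491 others above the same enrichment. The sets were not chosen alike. The cut of 13.4 was the lowest value of the 8 and was set on replicate 1 enrichment, the denominator of the ratio. All 231 shared members at ordinary background, with no cut, had a median of -0.54. The 56 were all the shared outer regions with a listed position, whatever their enrichment. This comparison was made after the values were seen and is a description with no test. Median widths were 575 bp for the 8 and 635 bp for the 75.

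**Figure D3:**
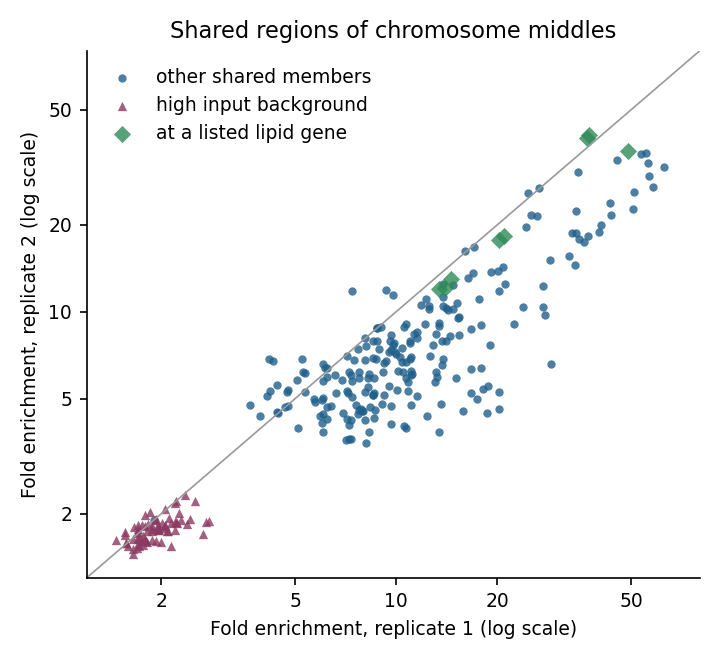
Fold enrichment of the 301 shared members in replicate 1 (x, log scale) and replicate 2 (y, log scale), with the line of equality. High-background members (triangles) cluster below 3, and the 8 shared members at listed lipid genes (diamonds) run from 13.4 to 48.9 in replicate 1.

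Sharing between replicates did not differ between the parts beyond its error. A replicate 2 region overlapped 301 of the 1027 members by at least 1 bp, 29.3% (Wilson 95% interval 26.6 to 32.2%), and 1663 of the 5985 outer regions, 27.8% (26.7 to 28.9%). Over all 7012 regions the share was 28.0%. Per chromosome it was 30.7 ± 7.34% in the middles and 27.9 ± 3.16% in the outer parts (SD, n = 20 chromosomes), higher in the middle on 12 and lower on 8 of 20 (exact sign test, adjusted p = 0.566). The middles ranged from 22.2% on chromosome 8 (22 of 99 members) to 46.5% on chromosome 6 (20 of 43). In the other direction, 314 of the 320 replicate 2 regions in the middles were overlapped in replicate 1, 98.1% (96.0 to 99.1%), against 97.2% (96.4 to 97.9%) in the outer parts.

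Sharing rose steeply with enrichment in both parts. All replicate 1 regions were put in 5 equal classes by fold enrichment. In the highest class, from 7.98 up, 167 of 196 members were shared, 85.2% (79.6 to 89.5%), against 86.8% (84.7 to 88.6%) in the outer parts. In the class below it, the shares were 26.0% (20.004 to 33.1%) and 28.2% (25.8 to 30.8%). In the third class, from 4.56 to 5.53, they were 4.67% (2.56 to 8.39%) in the middles and 8.26% (6.83 to 9.97%) in the outer parts. In the second class, from 3.90 to 4.55, the shares were 4.17% (2.13 to 8.01%) and 2.06% (1.40 to 3.03%).

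The lowest class was the exception. There, 72 of 256 members were shared, 28.1% (23.0 to 33.9%), against 12.6% (10.8 to 14.6%) in the outer parts. All 90 members at high input background fell in that class. With regions at high background left out and the classes drawn again, the lowest class had 1.55% (0.530 to 4.47%) in the middles and 1.57% (0.992 to 2.46%) outside them. The intervals of the other 4 classes overlapped as well. The third class then had 4.93% (2.70 to 8.83%) in the middles and 8.81% (7.30 to 10.6%) outside them.

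**Figure D4:**
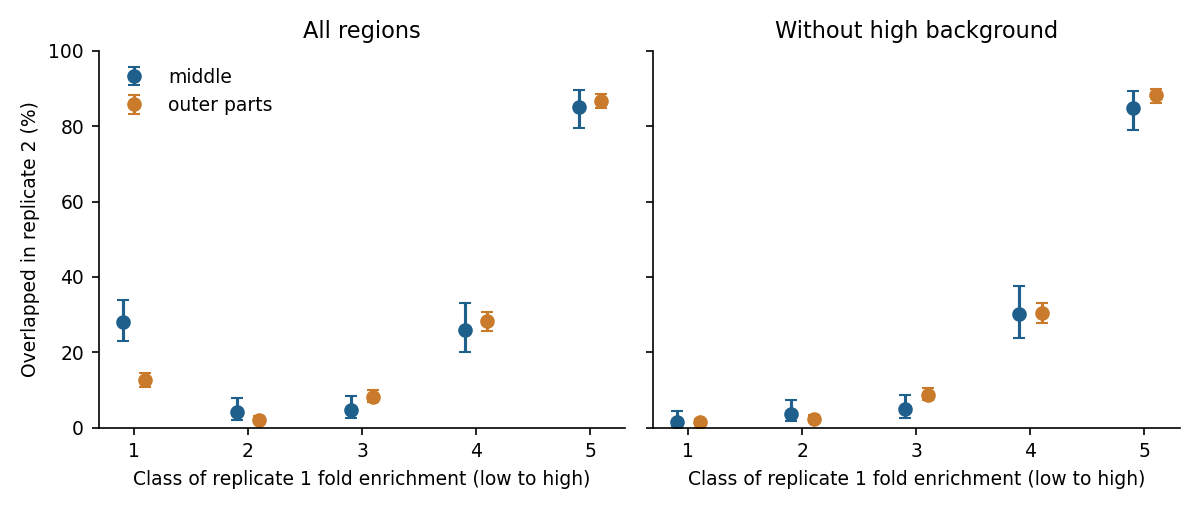
Percent of replicate 1 regions overlapped in replicate 2, by 5 equal classes of replicate 1 fold enrichment, in the middles (blue) and outer parts (orange), with Wilson 95% intervals. With all regions (left), class 1 stands at 28.1% in the middles and 12.6% outside, and without high-background regions (right) at 1.55% and 1.57%.

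Where a member was shared, the replicates placed its summit close together. Among the 231 shared members at ordinary background, the summits were a median of 23 bp apart, and 88.3% lay within 100 bp of each other. The outer parts had 24 bp and 89.0%. Enrichment of these members was lower in replicate 2 for 201 of 231 (87.0%), with a median log2 ratio of replicate 2 to replicate 1 of -0.54 (quartiles -0.92 and -0.24). The outer value was -0.57. The ranks of the 231 members in the replicates had a Spearman correlation of 0.73 across regions (0.76 outside), given as a description since the regions come from the same 2 libraries.

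The 706 unshared members at ordinary background had a median enrichment of 4.57 and 23 fragments at the summit. Shared ones had medians of 10.7 and 59 fragments. The 5 strongest unshared members had replicate 1 enrichments from 11.5 to 12.97. The first was at Glyma.01G081500 (RAD23C, an adaptor that brings ubiquitinated proteins to the proteasome) on chromosome 1 from 23600345 to 23600797, with 58 fragments (44.0 to 74.98). Another was at Glyma.12G148600 on chromosome 12, a cyclophilin-like peptidyl-prolyl isomerase gene, with 53 fragments (39.7 to 69.3). One at Glyma.13G185000, a DUF707 gene of unknown function, had 66 fragments (51.0 to 84.0). The other two, on chromosomes 13 and 15, had no gene name in the tables used.

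A class of regions with high input background made up a larger share of the regions in the middles than in the outer parts. The local background at the summit was recovered from the deposited values, and was called high above 10 times the lowest of the list, a limit chosen in an earlier look at these data. Such regions made up 3.55% of all 7012, but 90 of 1027 members, 8.76% (Wilson 95% interval 7.18 to 10.7%), against 159 of 5985 outer regions, 2.66% (2.28 to 3.10%). Per chromosome the share was 10.8 ± 8.07% in the middles and 2.71 ± 1.44% in the outer parts (SD, n = 20 chromosomes). It was higher in the middle on 18 of 20 chromosomes (exact sign test, adjusted p = 0.000906).

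Chromosome 5 had the highest share, with 9 of 32 members (28.1%), followed by chromosome 18 with 12 of 44 (27.3%). Chromosomes 12 and 17 went the other way, with 1 of 35 and 0 of 44 members. In the replicate 2 list, 75 of 320 regions in the middles were at high background, 23.4% (19.1 to 28.4%), against 7.73% (6.58 to 9.05%) outside.

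In number per Mb, however, the class differed much less between the parts than the other regions did. The middles had 0.238 high-background regions per Mb and the outer parts 0.280, a ratio of 1.18, whereas the other regions had 2.47 and 10.3 per Mb, a ratio of 4.15. Per chromosome, the density of the class was lower in the middle on 12 and higher on 8 of 20 (exact sign test, adjusted p = 0.566, a test added after the data were seen). A test that does not pass cannot show equal densities, and the number in 10 equal segments ran from 10 to 40. The higher share in the middles thus sat beside a lower number of other regions and not beside more of this class.

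**Figure D5:**
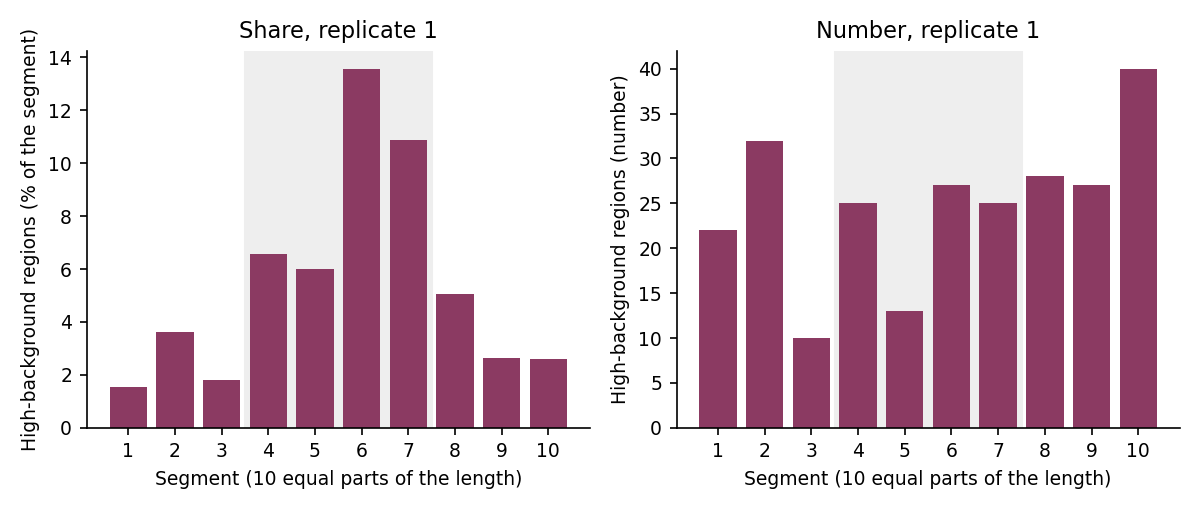
High-background regions of replicate 1 in 10 equal segments of the chromosome length, as a percent of the regions of the segment (left) and as a number (right), pooled over 20 chromosomes, the middles shaded grey. The share peaks at 13.6% in segment 6, while the number lies between 10 and 40 in all 10 segments.

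High-background members differed from the rest in every value given. Their median enrichment was 1.93 (range 1.46 to 2.78), from a median of 152 fragments over a background 23.8 times the lowest. The other members had 4.99 from 25 fragments at 1.23 times. Fragments, background and enrichment define the class, so this is a description. Sharing was not used in the definition, and 70 of the 90 were shared, 77.8% (68.2 to 85.1%), against 24.7% (22.0 to 27.5%) of the other members. Sharing is not independent of the definition, however, since shared ones among the other members also had more fragments (median 59 against 23). The intervals take regions as independent, although 21 of the 90 lay in 5 runs of close neighbours, described below. In the outer parts, 81.1% (74.3 to 86.5%) of the class was shared. All 70 overlapped a replicate 2 region that was also at high background.

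Members of this class formed 5 runs with less than 20 kb between neighbours, which held 21 of the 90. The longest lay on chromosome 18 from 33800622 to 33820520, with 8 regions in 19.9 kb, 7 of them shared. On chromosome 5, 6 regions lay within 5.84 kb from 14961045 to 14966887, and on chromosome 4, 3 regions within 2.67 kb. No other member lay inside any of the 5 runs. The highest background, 48.0 times the lowest, was at a member on chromosome 20 from 32784104 to 32784519, with 285 fragments (253 to 320) in replicate 1 and an enrichment of 1.76. Replicate 2 gave 1.82 there. The next 4, on chromosomes 4, 13 and 15, had backgrounds from 42.2 to 47.8 times the lowest and enrichments from 1.70 to 2.05. None of the 5 had a gene name in the tables used.

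Without the high-background class, the contrast in density stood and the small differences in sharing stayed within their error. Of the remaining members, 24.7% were shared against 26.3% (25.2 to 27.5%) outside, lower in the middle on 13 of 20 chromosomes (exact sign test, adjusted p = 0.338). Densities of shared regions were 0.610 per Mb in the middles and 2.70 outside, a ratio of 4.43, and those of unshared regions 1.86 and 7.55, a ratio of 4.05. Across the 5 enrichment classes drawn without the high-background regions, the ratio of outer to middle density ran from 3.77 to 4.91. Regions of all 5 classes were sparser in the middles.

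At the limits of the middle, the members closest to 0.3 and 0.7 of the length lay on chromosomes 8 and 20. The one on chromosome 8 had an enrichment of 50.8 in replicate 1 and 22.6 in replicate 2, and the nearest region just outside, on the same chromosome at Glyma.08G178600, had 20.6 and 35.7. At the other limit, the member on chromosome 20 had 5.05 and was not shared, and the nearest outside region, on chromosome 3, had 5.84 and was not shared either.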

How the data were processed

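GmWRI1 ChIP-Seq was analysed from 2 deposited peak lists, 1 per ChIP replicate. The authors called narrow peaks with MACS3 against input at a q-value limit of 0.01, without pooling replicates. Bowtie 0.12.7 is named in the submitters' processing notes without a role. The build, Wm82.a2.v1, is that of the study's gene tables. The fold enrichment is a ratio deposited by the authors from the caller, ChIP fragments over local background with 1 added to both. Each region also has the authors' −log10 p-value and −log10 q-value, and the deposited score is the whole part of 10 times −log10 q and was not used further. Read depths were not used. How reads at repeats and PCR duplicates were handled is not given in the sources used here, and either could change the regions of the chromosome middles.

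Fragments and background at each summit were recovered as the whole number of fragments whose Poisson tail matched the deposited p-value within a relative error of 0.0001, which all 7042 and 2142 regions met. The lowest background was 3.37 in replicate 1 and 2.40 in replicate 2. On simulated data, 100% of 200 summits were recovered. The 30 and 10 regions on unplaced scaffolds were left out. Middles and outer parts of the same chromosome were compared by a two-sided exact sign test over 20 chromosomes, with Benjamini-Hochberg adjustment over 9 tests and a threshold of 0.05. Outer parts on either side were kept apart for spacing. Shares have Wilson 95% intervals. Without molecular identifiers, all intervals cover counting error only.

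The regions named were the 10 shared members at ordinary background with the highest mean enrichment, the 5 strongest unshared, the 5 of highest background, the 3 widest and 3 narrowest (48 tied), those at the study's FA and TAG gene positions, and those nearest the limits. The study's table of regions and genes was held in part, so a missing name says nothing. Members and lists were chosen with earlier results of these data known. Alternatives were other limits of the middle, q limits of 0.001 and 1e-05, other overlap rules, another background limit and the replicate 2 list. Sequence, motifs, base composition and gene features were not analysed here. Scripts ran in Python 3.11.15 (pandas 2.3.3, numpy 2.4.6, matplotlib 3.10.9, scipy 1.17.1).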

Additional observations from a re-analysis of the deposited data

Results flagged for a closer look

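Regions also lay on unplaced scaffolds, which the comparisons above do not use. Replicate 1 had 30 such regions of 7042 (0.426%) and replicate 2 had 10 of 2142 (0.467%). Scaffolds have no place in a middle or an outer part.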

How the results depend on the processing

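Of 74 recomputed differences between middles and outer parts, 62 kept their direction and their side of the threshold. Density, spacing and the share of high-background regions kept theirs under all alternatives except 1. With only high-background regions, chosen after seeing the data, the mean density difference was -0.0466 per Mb in replicate 1 and -0.0550 in replicate 2, and neither passed. Leaving out chromosome 13, also chosen after seeing the data, moved no call. The difference in median fold enrichment passed with limits of 0.25 and 0.75 of the length (-0.205) and changed sign at 0.4 and 0.6 (0.0877), and it was -0.0542 without high-background regions. That of median width, not called in any setting, changed sign at 0.35 and 0.65 (13.1 bp), at 0.4 and 0.6 (17.4 bp) and at q below 1e-05 (0.975 bp). Sharing with all regions changed sign without high-background regions (-1.24 percentage points). Sharing without that class changed sign at 0.35 and 0.65 (0.783 points), at 0.4 and 0.6 (0.404 points), at q below 1e-05 (0.0781 points) and with overlap of at least 50% of both regions (0.229 points), and none passed. The cause was not tested. Middle and outer parts were paired by chromosome throughout. Apart from the pairing by chromosome, no paired analysis was possible because replicate numbers cannot serve as a block. Each list already sets a ChIP sample against input, and the parts are compared within a list. No replicate could be left out of a comparison within 1 list. The replicate 2 list gave the same direction as replicate 1 for density, spacing, fold enrichment and the share at high background. Fewer than 50 members on most chromosomes limit the per-chromosome shares.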
